A study of Mus musculus with 8 samples.

Results

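The Schlafen family of mouse macrophages was described here through every probe on the array that carries the symbol Slfn1, Slfn2, Slfn3, Slfn4, Slfn5, Slfn8, Slfn9 or Slfn10. All 8 genes had a row, with 10 probes among the 25697 of the array. The family was chosen by measured values of these arrays, since Slfn5 was among the largest differences between the genotypes after M1 activation, so the difference between the M1 groups is given as a description, with no test.

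The study asked how inducible nitric oxide synthase (iNOS, encoded by Nos2) affects the M1 polarization of macrophages. Macrophages were grown from bone marrow with 10 ng/ml GM-CSF over 7 days, and their RNA was hybridised to 8 Illumina bead arrays, 2 for each of 4 groups. The groups were WT unstimulated (CON), WT M1, iNOS-/- CON and iNOS-/- M1, and the M1 cells had received LPS at 200 ng/ml plus IFN-γ at 10 ng/ml for 6 h. The labels give the mice of all groups as female C57bl/6J aged 8 weeks. Per the study's methods, the iNOS-deficient line was B6.129P2-Nos2tm1Lau/J, a germline allele carried in every cell of the animal, and the WT mice were C57BL/6J. No source says whether the 2 arrays of a group came from separate animals or cultures, so the p-values measure only the spread between these arrays, which may be technical.

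The name Schlafen comes from the German verb for sleeping, because the first members were found as genes that hold T cells in a resting state. The proteins share a core domain that binds RNA. The longer members Slfn5, Slfn8 and Slfn9 also carry a helicase-like part that the short Slfn1 and Slfn2 lack. Several members are known as interferon-stimulated genes, which macrophages switch on after type I interferon, IFN-γ or LPS.

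Each Illumina probe is 50 bases long, and a stretch of 30 bases from its first base is shown for the probes on which the results turn.
Slfn5 probe: tccagagttcatttccagggatgatttgca
Slfn1 probe: agctcactgctgcttcatgagccccctcca
Slfn2 probe: gaggaatgggtgaaactccagatgaatgcc
Slfn9 probe 1: cacacctggaactctcagaacacaggaacc
Slfn10 probe 1: gtgcagtcctactgatgacagagccaataa
None of the 10 Schlafen probes shared a run of 20 bases with any other probe of the array. The closest pair was the Slfn8 probe and the second Slfn9 probe, which matched at 41 of 50 positions and shared a run of 14 bases, shown in capitals within 30 bases of each.
Slfn8 probe: ttaaagaaAAAGACTAAAAACAcaatatta
Slfn9 probe 2: ataaagatAAAGACTAAAAACAtaatatta
These 2 probes were also the poorest in G and C, at 20% for Slfn8 and 18% for Slfn9 probe 2, against a median of 52.0% over the array, and only 1.82% of all probes lay at or below 26%. Neither was detected on more than 1 array, and the same held for Slfn3 at 42%, Slfn4 at 32% and Slfn10 probe 2 at 46%. Whether base content played a part in detection was not tested.

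The array file places the Schlafen probes on chromosome 11 within 252 kb, with no genome build stated for its coordinates. RefSeq (GRCm38.p6) sequence upstream of the start was found for 7 of the 8 genes, all but Slfn10, and was searched on both strands for the interferon-stimulated response element core GAAANNGAA, the gamma-activated sequence core TTCNNNGAA and the PU.1 core GAGGAA. PU.1 is the factor that shapes the macrophage lineage. In the 300 bases from 250 before to 50 after the start, the response element core occurred in 3 of 7 genes, Slfn5, Slfn8 and Slfn9, against 8.56% of 32851 promoters. The gamma-activated core occurred in 0 of 7 against 8.3%, and the PU.1 core in 1 of 7, Slfn9, against 28.3%. A match describes letters and is not evidence of a bound factor. The 250 bases before the start are shown for 3 genes, Slfn5 with 2 matches, Slfn9 with 1 match and Slfn1 with none, written in the direction of the gene with the response element matches in capitals.
Slfn5, chr11:82951852-82952101, plus strand: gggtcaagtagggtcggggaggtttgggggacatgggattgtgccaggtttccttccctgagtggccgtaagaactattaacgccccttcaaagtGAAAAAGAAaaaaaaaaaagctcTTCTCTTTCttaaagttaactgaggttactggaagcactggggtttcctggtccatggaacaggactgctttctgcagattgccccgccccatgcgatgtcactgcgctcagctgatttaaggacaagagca
Slfn9, chr11:82991831-82992080, minus strand: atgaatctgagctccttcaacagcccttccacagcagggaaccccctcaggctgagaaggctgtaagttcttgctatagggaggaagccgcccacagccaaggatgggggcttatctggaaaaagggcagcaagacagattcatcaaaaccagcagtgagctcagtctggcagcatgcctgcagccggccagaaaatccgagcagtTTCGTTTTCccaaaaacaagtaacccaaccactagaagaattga
Slfn1, chr11:83116570-83116819, plus strand: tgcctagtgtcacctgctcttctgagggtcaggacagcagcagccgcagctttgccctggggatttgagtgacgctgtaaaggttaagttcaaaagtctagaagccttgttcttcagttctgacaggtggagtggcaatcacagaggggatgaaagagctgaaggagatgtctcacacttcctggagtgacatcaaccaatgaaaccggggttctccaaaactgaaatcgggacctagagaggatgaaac
In Slfn5 the 2 matches began 155 and 132 bases before the start, on opposite strands. Slfn8 and Slfn9 carried the same letters, GAAAACGAA, on the strand opposite to the gene, and the longest run shared between their promoters was 20 bases. Without gaps, up to 133 bases of these promoters matched, against 102 for the next gene pair, Slfn1 and Slfn8. The matches of Slfn8 and Slfn9 may therefore not be separate ones. The count of 3 is also of genes, whereas the share is of promoters.

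Bead intensities were divided by an array-wise scale factor, called scaled intensity below, and a probe counts as detected on an array where the deposited detection p-value is under 0.05. Between 11833 and 12673 probes were detected per array. The median absolute log2 difference between arrays was 0.161 to 0.188 within a group and 0.344 to 0.819 between groups. The 7 macrophage markers on the array (Csf1r, Emr1, Cd68, Itgam, Fcgr1, Lyz2 and Mertk) were detected on both arrays of every group. The probe of Nos2, the targeted gene, was not detected on any CON array and gave scaled intensities of 183 and 137 in WT M1 and 192 and 217 in the M1 arrays labelled iNOS-/-. It therefore does not check the genotype labels, and those arrays are called iNOS-/- as labelled throughout. Nos2 lies on chromosome 11 too, with 42 protein-coding genes between it and the first Schlafen gene in the RefSeq table, so loss of iNOS and strain DNA linked to the targeted allele cannot be told apart for this family.

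Of the 10 probes, 5 were detected on at least 2 arrays and entered the fit of 13868 probes: Slfn1, Slfn2, Slfn5, Slfn9 probe 1 and Slfn10 probe 1. Slfn1 and Slfn2 were detected on all 8 arrays. Slfn5 and Slfn10 probe 1 passed only through the iNOS-/- M1 arrays and Slfn9 probe 1 only through the M1 arrays, so these had to differ between groups. Slfn3, a gene first described in T cells, lay between -1.70 and 5.35 and was detected on 0 arrays. Slfn4, which is known from myeloid cells, lay between -3.27 and 5.37 and was also detected on 0 arrays. Slfn9 probe 2 was detected on 0 arrays at -9.15 to -1.70, Slfn8 on 1 array (WT M1 replicate 2, 8.74), and Slfn10 probe 2 on 1 array (iNOS-/- M1 replicate 1, 13.3, with 7.93 on the other). For undetected probes the sole statement possible is that their signal was not above the background of the array.

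**Figure D1:**
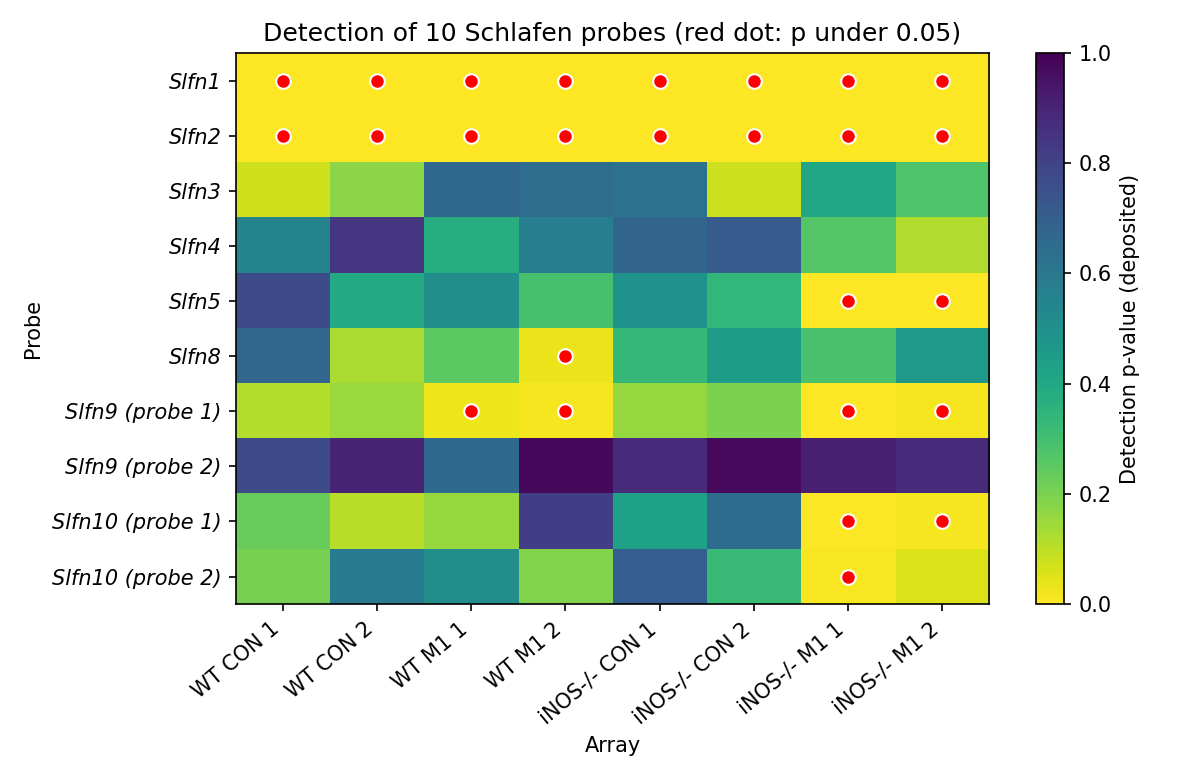
Deposited detection p-values of the 10 Schlafen probes (rows) on the 8 arrays (columns), with a red dot where p is under 0.05. Slfn1 and Slfn2 were detected on all 8 arrays, Slfn9 probe 1 on the 4 M1 arrays, and Slfn5 and Slfn10 probe 1 on the 2 iNOS-/- M1 arrays.

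Slfn5, a long nuclear member, had scaled intensities of -2.58 and 0.84 in WT CON, -0.243 and 2.29 in WT M1, and 0.0881 and 1.09 in iNOS-/- CON. In iNOS-/- M1 it reached 45.3 and 59.3. It was therefore seen on the 2 arrays of that group and was not well above background on the other 6, whose order has no meaning. The log2 difference between iNOS-/- M1 and WT M1 was 5.10 (SE 0.39), which chose the family and carries no test. Its size rests on the floor of 1 put under WT M1, and fell to 1.69 with a floor of 16 and to 1.80 with normalization by neqc. Against iNOS-/- CON the difference of 5.63 became 1.69 and 1.81 in these settings. On the scaled intensity, set against the lowest detected signal, Slfn5 was at least 7.31-fold higher in iNOS-/- M1 than in WT M1 and at least 10-fold higher than in iNOS-/- CON. These bounds hold for this scale only, since a floor of 16 and neqc gave smaller differences. In all, 132 probes were detected on both iNOS-/- M1 arrays and nowhere else, Slfn5 and Slfn10 probe 1 among them. The corresponding numbers were 82 for WT CON, 32 for WT M1 and 88 for iNOS-/- CON. Among the 132, Slfn5 was the 5th brightest with a mean of 52.3 against a median of 14.2. This rank uses arrays that chose the family, so it is a description and no support.

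Slfn1, a short member, was the Schlafen probe with the widest range among those detected on every array. Its scaled intensities were 38.5 and 40.1 in WT CON, 87.8 and 94.4 in iNOS-/- CON, 505 and 540 in WT M1, and 1410 and 1530 in iNOS-/- M1. No groups overlapped, in that order from low to high. Slfn2, the short member whose loss in mice costs T cells their resting state, gave 187 and 191 in iNOS-/- CON and 236 and 201 in WT CON. It gave 513 and 324 in WT M1 and 870 and 1050 in iNOS-/- M1. The levels of Slfn2 in the 2 unstimulated groups lay side by side, the 2 WT M1 arrays were further apart than those of any other group, and the iNOS-/- M1 arrays were the highest.

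Slfn9 probe 1, from a long member, stayed near background without stimulation, at 4.24 and 2.99 in WT CON and 2.82 and 2.35 in iNOS-/- CON. It was detected at 8.73 and 10.1 in WT M1 and at 20.7 and 12.2 in iNOS-/- M1. Both M1 groups thus stood above both CON groups, with the iNOS-/- M1 arrays spread over a wide range. Slfn10 probe 1, from a gene that RefSeq lists as a pseudogene (Slfn10-ps), read 2.58 and 4.01 in WT CON, 4 and -3.90 in WT M1, 0.353 and -1.26 in iNOS-/- CON, and 16.2 and 12.0 in iNOS-/- M1. Among these, the iNOS-/- M1 values were the detected ones.

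**Figure D2:**
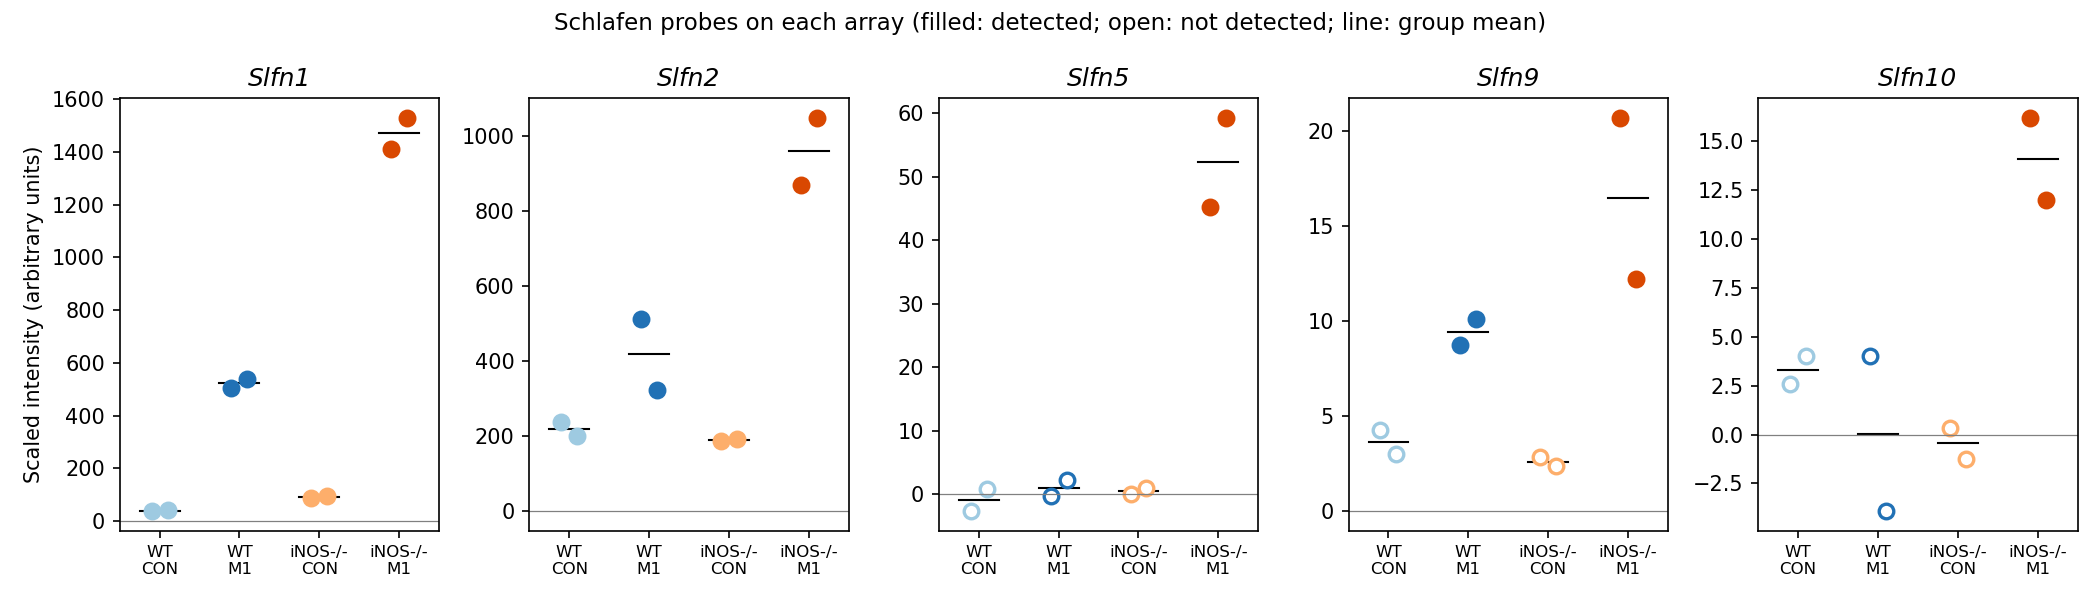
Scaled intensity (arbitrary units, separate linear axis for each probe) of the 5 fitted Schlafen probes on every array. Filled points are detected, open points are not, and lines are group means of 2 arrays, and all 5 probes are highest in iNOS-/- M1, where Slfn5 reads 45.3 and 59.3.

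Without stimulation, Slfn1 alone of the 5 fitted probes was called different between the genotypes. This comparison uses none of the arrays that chose the family. Slfn1 was higher in iNOS-/- CON than in WT CON by 1.21 on the log2 scale (SE 0.09, 2.32-fold, limma adjusted p = 0.000854). Of all 13868 probes, 16.1% were called higher and 16.1% lower in this comparison, so 1 of 5 is near the background. The Slfn2 difference was -0.21 (SE 0.24, adjusted p = 0.571) and that of Slfn5, undetected in both groups, 0.06 (adjusted p = 0.923). Slfn9 probe 1 (-0.47, adjusted p = 0.314) and Slfn10 probe 1 (-1.69, SE 0.66, adjusted p = 0.115) were undetected in both groups too, so their differences have no order. Leaving out WT M1 replicate 1 or WT M1 replicate 2 took Slfn10 to an adjusted p of 0.016 and the count of called probes from 1 to 2.

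In WT cells, Slfn1 and Slfn2 were higher after LPS and IFN-γ, and so was Slfn9 probe 1, in a comparison where 20.1% of all probes were called higher and 14.9% lower. These M1 arrays are among those that chose the family. Slfn9 passed the detection filter only through M1 arrays, so its call is no support of a response. Slfn1 rose by 3.73 (SE 0.09, 13.3-fold, adjusted p = 3.18e-05). Slfn2 rose by 0.90 (SE 0.24, 1.87-fold, adjusted p = 0.0382) and Slfn9 probe 1 by 1.40 (SE 0.31, adjusted p = 0.0216), at least 1.59-fold on the scaled intensity. Under neqc the Slfn9 difference was 0.20 (adjusted p = 0.236), and with a floor of 16 it was 0 (adjusted p = 1). The Slfn10 difference was -0.69 (adjusted p = 0.468) between undetected groups. It became 0.33 without WT M1 replicate 2 and -1.71 (adjusted p = 0.0314) without WT M1 replicate 1. Slfn5 gave 0.60 with no test.

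The call of Slfn1 in WT cells held in all 18 settings run, whereas those of Slfn2 and Slfn9 did not. The Slfn2 call was lost when any of 7 arrays was left out, with adjusted p from 0.0537 to 0.158, and kept (adjusted p = 0.0156) only without WT M1 replicate 2. Over 17 settings Slfn9 kept its call in 9 and lost it in 8. It was lost without WT CON replicate 2 (adjusted p = 0.101), WT M1 replicate 1 (0.0656) or WT M1 replicate 2 (0.0931). It was also lost under quantile normalization (0.0667), with an intensity trend (0.0786), without the detection filter (0.0529), under neqc and with a floor of 16.

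In iNOS-/- cells, Slfn1 and Slfn2, which were detected on every array, were called higher after stimulation. In this comparison 26.4% of all probes were called higher and 23.6% lower. The iNOS-/- M1 arrays are among those that chose the family. Slfn9 probe 1 and Slfn10 probe 1, undetected in iNOS-/- CON, were called higher too. Slfn1 rose by 4.01 (SE 0.09, 16.1-fold, adjusted p = 1.7e-05) and Slfn2 by 2.34 (SE 0.24, 5.06-fold, adjusted p = 0.000952). Slfn9 probe 1 rose by 2.62 (SE 0.31, adjusted p = 0.00153) and Slfn10 probe 1 by 3.80 (SE 0.66, adjusted p = 0.00615), at least 3.08-fold and 2.7-fold on the scaled intensity. Under neqc both differences were 0.64. With a floor of 16 they were 0.19 (adjusted p = 0.321) and 0.01 (adjusted p = 0.413), and both calls were lost. Slfn10 and Slfn9 passed the detection filter through these M1 arrays, so their calls here are no support of a response. Slfn5 differed by 5.63 with no test.

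Between the M1 groups, all 5 fitted probes had both iNOS-/- arrays above both WT arrays, which 38.2% of all probes did. In this comparison 24.5% of all probes were called higher and 23.9% lower. The log2 differences were 1.49 for Slfn1 (2.81-fold), 1.23 for Slfn2 (2.34-fold) and 0.76 for Slfn9 probe 1 (1.69-fold). Slfn10 probe 1 differed by 2.80, with a bound of at least 1.97-fold on the scaled intensity. Leaving out 1 array moved Slfn9 to 0.39 (iNOS-/- M1 replicate 1) or 1.16 (iNOS-/- M1 replicate 2), and Slfn10 to 1.79 (WT M1 replicate 2) or 3.83 (WT M1 replicate 1). For Slfn10, neqc gave 0.60 and a floor of 16 gave 0.01, and for Slfn9 they gave 0.38 and 0.19. Because this comparison selected the family, nothing is read from these counts.

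**Figure D3:**
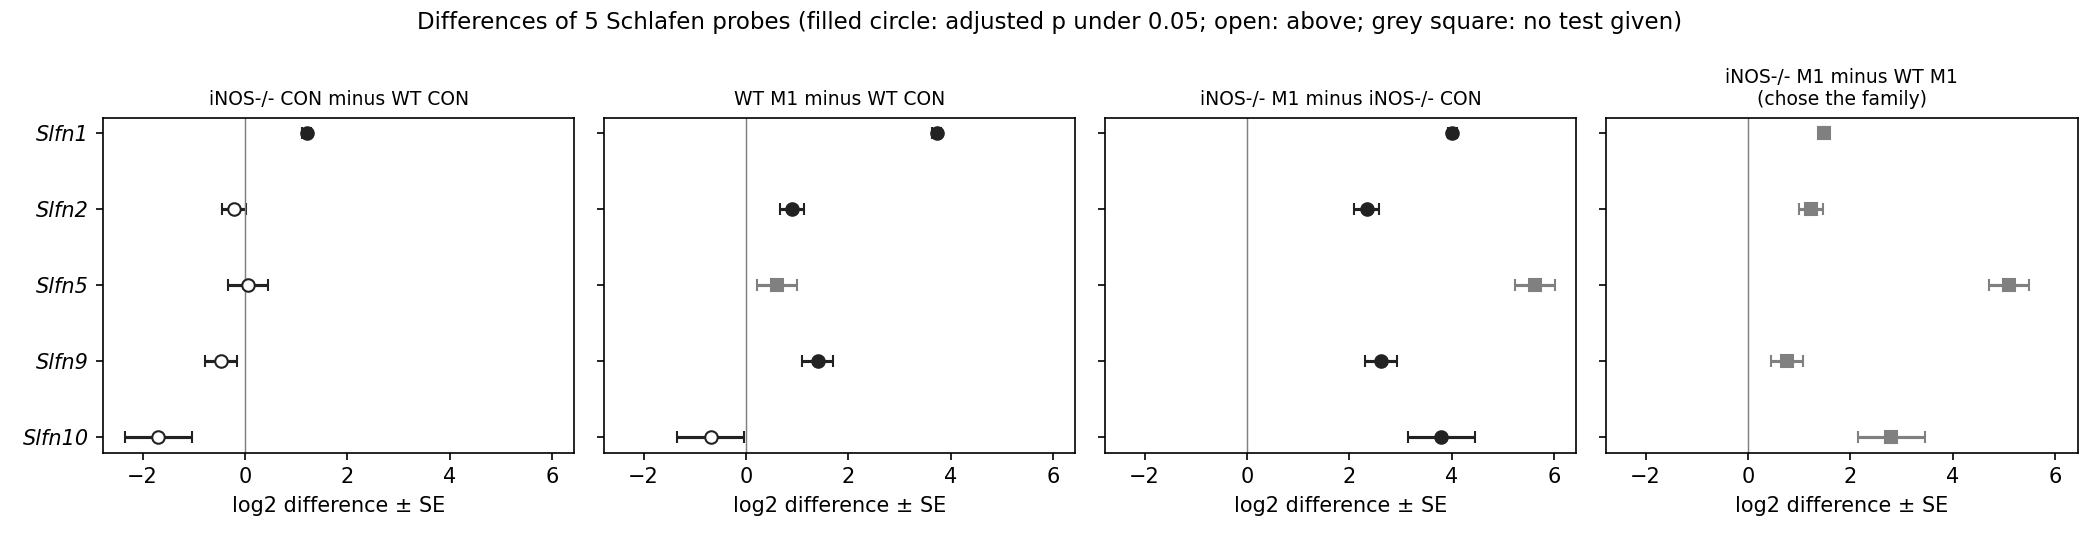
Log2 differences with standard errors (bars) of the 5 fitted Schlafen probes in 4 comparisons. Filled circles have an adjusted p under 0.05, open circles do not and grey squares carry no test, and Slfn1 is the 1 filled circle among unstimulated cells, at 1.21.

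The genotype difference in response, the M1 change in iNOS-/- minus that in WT, contains the same arrays and is also a description. It was 0.28 for Slfn1 (SE 0.13), set beside its own responses of 3.73 in WT and 4.01 in iNOS-/- cells. Its sign turned to -0.03 under quantile normalization. The differences were 1.43 for Slfn2 (SE 0.34), 1.22 for Slfn9 probe 1 (SE 0.44), 4.49 for Slfn10 probe 1 (SE 0.94) and 5.04 for Slfn5 (SE 0.56). The Slfn5 and Slfn10 values rest on groups set to the floor.

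The other genes of the interferon pathway are given by count. Of 21 fitted interferon-stimulated genes, 20 were higher after stimulation in WT cells (median 2.45) and 20 in iNOS-/- cells (median 3.56), against medians over all probes of 0.07 and 0.05 and shares called higher of 20.1% and 26.4%. In unstimulated cells, 11 were higher and 1 lower in iNOS-/- (median 0.74, all probes -0.02), against 16.1% of all probes in each direction. Mx1, an antiviral GTPase, was higher by 2.61 (adjusted p = 0.00385), and Rsad2, the antiviral enzyme viperin, was lower, at -0.61 (adjusted p = 0.00762). Between the M1 groups, 20 of 21 were higher in iNOS-/- with a median of 1.77, against 24.5% of all probes. Isg20, an exonuclease, had 4.21, and Ifi44, the gene that was not called, had 3.01.

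Of 14 fitted receptors and signalling components, 10 were higher and 1 lower after stimulation in WT cells, and 13 higher and 1 lower in iNOS-/- cells. Over all probes, 20.1% were higher and 14.9% lower in WT cells, and 26.4% higher and 23.6% lower in iNOS-/- cells. Irf7, which amplifies the interferon response, rose by 3.88 in WT and 4.97 in iNOS-/- cells. The component that fell in iNOS-/- cells was the IFN-γ receptor chain Ifngr1, at -2.13 (adjusted p = 0.000106). In unstimulated cells 7 were higher and 2 lower in iNOS-/- (16.1% of all probes each way), among them Irf7 at 1.45 and Irf1 at -1.01. Between the M1 groups 13 of 14 were higher and 1 lower in iNOS-/-, against 24.5% and 23.9% of all probes.

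**Figure D4:**
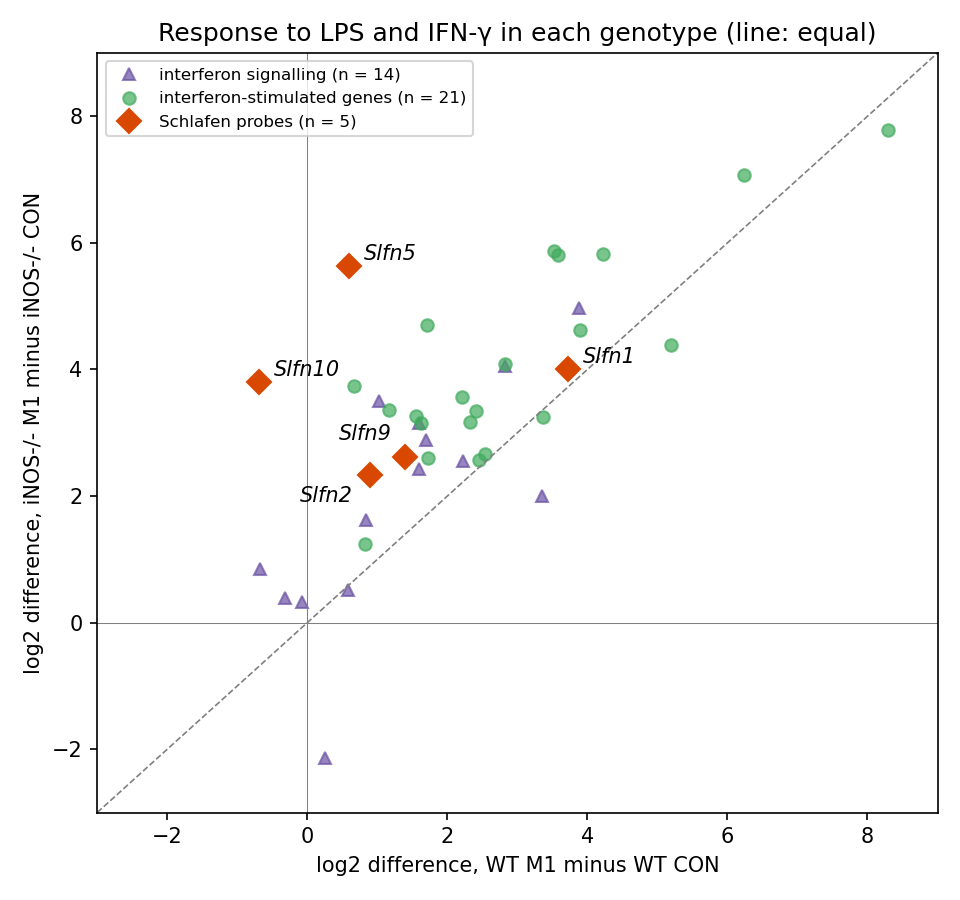
Log2 difference after LPS and IFN-γ in WT cells (x axis) and iNOS-/- cells (y axis) for the 5 fitted Schlafen probes, 14 interferon signalling genes and 21 interferon-stimulated genes, with a dashed line where both are equal. Slfn5 (0.60 and 5.63) and Slfn10 (-0.69 and 3.80) lie farthest above the line among the Schlafen probes, and Slfn1 (3.73 and 4.01) lies near it.

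Across the 8 arrays, the log2 values of the fitted Schlafen probes correlated with each other at a Pearson r of 0.57 (Slfn1 and Slfn10) to 0.91 (Slfn1 and Slfn2, Slfn2 and Slfn9), as a description over arrays that share 4 groups. The probes of other genes most like Slfn1 were LOC100038882 (0.999), Icam1, an adhesion molecule (0.999), and Socs3, a feedback inhibitor of cytokine signalling (0.998). Those most like Slfn2 were Wars (0.992), a tRNA synthetase, Enpp4 (0.99) and St3gal1 (0.988). For Slfn9 probe 1 they were Irf8, a macrophage transcription factor (0.986), LOC100047353 (0.984) and the integrin Itgav (0.983). As many as 429 probes passed an r of 0.95 with Slfn1, so these names stand for a common pattern over the groups.

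The genes beside the Schlafen cluster, 10 fitted genes on each side, include chemokines. Between the M1 groups 12 of these 20 were higher in iNOS-/- and 0 lower at the adjusted threshold of limma, in the comparison that chose the family, against 24.5% and 23.9% of all probes. In unstimulated cells 5 were higher and 6 lower, against 16.1% each way. After stimulation 7 were higher and 2 lower in WT cells (20.1% and 14.9% of all probes), and 14 higher and 1 lower in iNOS-/- cells (26.4% and 23.6%). Ccl5, a chemokine gene after the cluster, rose by 3.36 in WT and 4.41 in iNOS-/- cells.

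Some markers of T cells, granulocytes, dendritic cells and dividing cells differed between the genotypes with and without stimulation. Macrophage markers differed too. Of 7, 1 was higher and 2 lower in iNOS-/- CON than in WT CON, against 16.1% of all probes each way. Between the M1 groups 2 were higher and 4 lower in iNOS-/-, against 24.5% and 23.9% of all probes. Of 4 B cell markers on the array, 0 entered the fit. In these bulk cultures a change in the cells of a type and a change in RNA per cell cannot be told apart. The summed scaled intensity of 7 T cell markers was 173 to 189 in iNOS-/- M1 and 12.9 to 64.9 elsewhere, carried by Lck and Thy1, whereas Cd3d, Cd3e, Cd3g and Zap70 were not detected on any array. Granulocyte markers summed to 1180 to 1190 in WT CON, 1730 to 1790 in iNOS-/- CON, 1440 to 1560 in WT M1 and 4120 to 4250 in iNOS-/- M1, with Mpo not detected on any array. S100a8 led these sums in every group. Without stimulation 5 of 6 fitted granulocyte markers were higher in iNOS-/-, against 16.1% of all probes each way, and 1, Mmp8, was lower (-1.35, limma adjusted p = 0.00716). Between the M1 groups 3 of 6 were higher and 0 lower, against 24.5% and 23.9% of all probes. Dendritic cell markers summed to 305 to 331 in WT CON and to 4180 to 4360 in iNOS-/- CON. They summed to 5990 to 6030 in WT M1 and 18400 to 19500 in iNOS-/- M1, with Flt3 not detected on any array. Il4i1 led these sums in the groups other than WT CON. Without stimulation 6 of 7 fitted dendritic cell markers were higher in iNOS-/- and 0 lower, against 16.1% of all probes each way. Between the M1 groups 4 of 7 were higher in iNOS-/- and 1 lower, against 24.5% and 23.9% of all probes. Ccr7 was higher by 3.01 (limma adjusted p = 0.000265), and the lower one was Cd209a, at -5.02 (adjusted p = 0.00138). Ccl22 differed by 2.26 (adjusted p = 0.0941) and Itgax by -0.39 (adjusted p = 0.0888). Markers of dividing cells summed to 2380 to 2390 in iNOS-/- M1, 4570 to 4650 in iNOS-/- CON, 3870 to 4060 in WT M1 and 1070 to 1110 in WT CON. Without stimulation 7 of 8 fitted markers of dividing cells were higher in iNOS-/- and 0 lower, against 16.1% of all probes each way. Between the M1 groups 6 of 8 were lower in iNOS-/-, against 23.9% of all probes. Of the 8, 1, Ccnd1, was higher (1.29, limma adjusted p = 0.00285), against 24.5% of all probes. The part of these cell types in the Schlafen values was not tested.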

How the data were processed

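RNA of 8 macrophage samples was measured on Illumina mouse bead arrays, 2 for each of 4 groups that the labels define, with no array left out. Both MouseRef-8 and MouseWG-8 are named as the array. The authors deposited bead-averaged probe intensities without scaling between arrays, beside detection p-values for the same arrays. Per the file headers no background was subtracted, yet undetected intensities lay around 0, so none was subtracted here. The submitters' processing notes name GenomeStudio and limma 3.14.4.

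The study's methods name background subtraction, rank-invariant normalization, negative values set to 1 and log2. Here arrays were scaled on rank-invariant probes, every value under 1, small positive ones included, was set to 1, and log2 was taken. The rank-invariant set (rank within 0.05 of that in the mean array, both ranks between 0.5 and 0.9 of all probes) and its robust zero-intercept line (rlm of MASS 7.3.60.0.1) were chosen here. Scale factors were 0.743 to 1.19. Probes detected (p-value under 0.05) on 2 or more arrays were fitted with a one-way model of 4 groups over all 8 arrays (limma 3.58.1, R 4.3.3), with Benjamini-Hochberg adjustment over 13868 probes. Each probe of a member is given, the 3 likest probes were sought for members detected on at least 4 arrays, and up to 10 fitted genes on each side of the cluster were taken. An "at least" fold sets the bright group's mean log2 value against the lowest signal among detected probes on each array of the dim group, or the probe's own if higher. The members, lists and tests were chosen with earlier results of these data known.

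The procedure was tested on simulated data for the unstimulated genotype comparison, with 200 changed probes at each size. It called 29 of 200 changed 2-fold, 157 of 200 changed 4-fold and 161 of 200 changed 8-fold, and 13, 29 and 22 unchanged probes. Changed probes were drawn only from those brighter on average than Slfn5, Slfn9 probe 1 and Slfn10 probe 1, so the recovery does not cover these probes. The 200 changed probes were also fewer than the 2226 called higher and 2232 called lower in the measured data. Unchanged probes made up 31%, 15.6% and 12% of the calls, above the nominal share, and the reason for this excess was not tested. The test's pass criterion was first set on 2-fold changes, failed there, and was then set on larger ones. Other forms of the scaling line were also tried while it was being set up, and 1 of them, the mean array regressed on each array, was kept as an alternative chosen after seeing the data. The other alternatives were quantile normalization, neqc, a floor of 16, other detection filters, fits on 4 arrays, a replicate block, an intensity trend, each array left out, and a shorter promoter window. Figures were drawn with Python 3.11.15 and matplotlib 3.10.9. Values of some listed genes are not reported here.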

Additional observations from a re-analysis of the deposited data

How the results depend on the processing

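The 2 arrays per group and signals near background limit these results. The Slfn1 calls held in all 18 settings in each comparison tested. Among the remaining single-probe values, leaving out the Slfn5 difference between the M1 groups, 264 kept their call or stayed within the spread, 21 lost a call, 4 gained one and 29 moved beyond the spread. A further 2 turned their sign: Slfn1, difference of response, at -0.03 under quantile normalization, and Slfn10, WT response, at 0.33 without WT M1 replicate 2, which had no call in either setting.

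With a floor of 16, the called probes numbered 1 in the WT response and 2 in the iNOS-/- response, and the Slfn5 difference between M1 groups was 1.69, since values under the floor are raised to it by construction. Under neqc that difference was 1.80. Without the detection filter, 1 probe was called in the WT response, and with detection required on all 8 arrays 2 were called in the iNOS-/- response, where only Slfn1 and Slfn2 were fitted. On the 4 arrays of the contrast alone, 2 probes were called between the unstimulated groups, the second being Slfn10 (adjusted p = 0.0323). The cause was not tested for neqc, the missing filter and the 4-array fit.

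Leaving out each array in turn gave 1 to 2 called probes between the unstimulated groups, 1 to 2 in the WT response and 3 to 4 in the iNOS-/- response, and a Slfn5 difference of 4.49 to 5.74. Without either iNOS-/- M1 array, Slfn5 and Slfn10 were no longer detected on 2 arrays and had no value. The correlation between groups of the deviations of replicate 1 from replicate 2 lay between -0.04 and 0.02. No effect shared by replicate number was thus seen, which cannot settle whether the arrays were cultured or run as pairs. With the replicate block, 1, 2 and 4 probes were called in the unstimulated, WT and iNOS-/- comparisons, Slfn2 losing its WT call (adjusted p = 0.0589), and the Slfn5 difference stayed at 5.10. In the 250 bases before the start, motif counts over the 7 genes were 3, 0 and 1, as in the whole window.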
